A study of Mus musculus with 16 samples.

Results

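Histone lysine methyltransferases and demethylases are the enzymes that add methyl groups to histone lysines and take them off. A list of 36 genes of these 2 kinds was followed in mouse CD8+ T cells, and 35 of them had a mean of at least 10 depth-normalized reads over the 16 libraries. They stand among 12469 genes tested and 17159 genes in the table. Of the 35, 20 were methyltransferases or core subunits of Polycomb repressive complex 2 (PRC2), and 15 were demethylases. Setd1b was not analysed here, and Dot1l was left out of the list. The lowest mean of a member was 639 reads and the median of the 35 means was 4336 reads, so no member was near the limit of detection.

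The cells were CD8+ T cells of C57BL/6 background, with no genetic change named in the labels, and in all 4 groups they were first stimulated through CD3 and CD28 with antibodies for 2 days. They then spent 36 h in 1 of 4 media, with 4 libraries per medium. Supplemented supernatant was conditioned medium of the mouse melanoma line B16F10 to which methionine was added, and supernatant was that conditioned medium with no methionine added. Methionine-free fresh medium and complete fresh medium, which holds methionine, were the fresh counterparts. The labels give no methionine concentration for any medium and leave it unsaid whether libraries of 1 medium stem from different animals or cultures. Every p-value below therefore measures the spread between libraries, which may be technical.

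Histone methyltransferases take the methyl group from S-adenosylmethionine, which cells make from methionine, and they release S-adenosylhomocysteine, which inhibits them. Most carry a catalytic SET domain. Demethylases work by another chemistry: Kdm1a and Kdm1b are flavin-dependent amine oxidases, and the others are Jumonji enzymes that need iron, oxygen and 2-oxoglutarate. Methylation of H3K4 and H3K36 is found at active genes, and methylation of H3K9 and H3K27 at silent ones. In activated CD8+ T cells these marks are remodelled as effector genes are switched on and memory genes are silenced. RNA levels, which were measured here, say nothing of enzyme activity or of the marks themselves.

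The libraries held 25.8 to 42.3 M reads, and the first principal component of all genes tested took 80.7% of the variance. In the 24 pairs of libraries of the same medium, the mean chi-square per gene was 2.65 to 9.42, above the value that counting error alone would give. Summed levels of 5 CD8+ T cell markers (Cd3e, Cd3d, Cd8a, Cd8b1 and Cd2) were 84487 to 90199 reads in supplemented supernatant, 85649 to 86499.8 in supernatant, 74438 to 76159 in methionine-free fresh medium and 74820.0 to 77601 in complete fresh medium. That sum joins genes that moved in opposite directions. On removal, Cd3e averaged 5849.6 reads in methionine-free fresh medium, against 10427 in complete fresh medium, and Cd3d also fell. Cd8a averaged 30627 reads in methionine-free fresh medium, against 24492 in complete fresh medium, and Cd2 also rose, while Cd8b1 was not called. The summed markers of CD4+ T cells, B cells, NK cells, myeloid cells and melanocytes were each at or below 474 reads in every library. The melanocyte genes Mlana, Tyrp1 and Dct were under 10 reads in every library. Summed melanocyte markers still moved with methionine, at 56.8 to 90.04 reads in supplemented supernatant, 175 to 208 in supernatant, 228 to 238 in methionine-free fresh medium and 49.4 to 57.0 in complete fresh medium. Most of this came from Pmel, a melanosome gene, which averaged 27.9 reads in supplemented supernatant, 131 in supernatant, 176 in methionine-free fresh medium and 29.1 in complete fresh medium. Summed B cell markers were 21.6 to 47.0 reads in supplemented supernatant, 51.6 to 68.4 in supernatant, 51.4 to 71.9 in methionine-free fresh medium and at most 42.5 in complete fresh medium. Summed myeloid markers were 26.4 to 44.2 reads in supplemented supernatant, 88.9 to 96.3 in supernatant, 68.2 to 88.7 in methionine-free fresh medium and 39.1 to 63.0 in complete fresh medium. Both sums were higher in the 2 media without added methionine, with no overlap. Summed CD4+ T cell markers were highest in supernatant, at 429 to 474 reads, and summed NK cell markers in supplemented supernatant, at 248 to 295 reads. The NK sum rested on Klrb1c, which averaged 253 reads in supplemented supernatant and 55.3 in supernatant, whereas Ncr1, which defines NK cells more narrowly, averaged 11.2 reads in supplemented supernatant and 14.2 in supernatant. The part of other cells in the results below was not tested. In bulk RNA, fewer cells of a type and less RNA per cell cannot be told apart. The strand used in counting is not given in the sources used here, so reads of overlapping genes cannot be separated. In the GENCODE annotation of GRCm38, no exonic base of Setd2 (chr9:110532597-110618633), Smyd5 (chr6:85431989-85446435), Smyd3 (chr1:178951960-179518041), Kdm4b (chr17:56326062-56402870) or Kdm5b (chr1:134560171-134635285) lies in another gene. For Kdm6b (chr11:69398508-69413675) the share was 4.11% and for Ash1l (chr3:88950622-89079375) 2.37%.

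Levels of different genes were compared as FPKM, which is scaled to transcript length. Over all 16 libraries the highest mean levels were 82.6 FPKM for Ezh2, the main H3K27 methyltransferase of dividing cells, and 67.0 FPKM for its partner Suz12. Ehmt2 (G9a), an H3K9 methyltransferase, followed at 65.5 FPKM and Setd3, which is known as the actin histidine methyltransferase, at 60.9 FPKM. The highest demethylase was Kdm3a, an H3K9 eraser, at 54.1 FPKM. At the low end were Kdm1b at 6.73 FPKM, the H3K27 demethylase Kdm6b at 5.89 FPKM, Smyd3 at 5.06 FPKM and the H3K9 methyltransferase Suv39h2 at 4.72 FPKM. The ranges of the highest genes overlapped: Ezh2 spanned 38.4 to 134 FPKM over the 16 libraries and Suz12 spanned 36.4 to 95.8 FPKM.

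**Figure D1:**
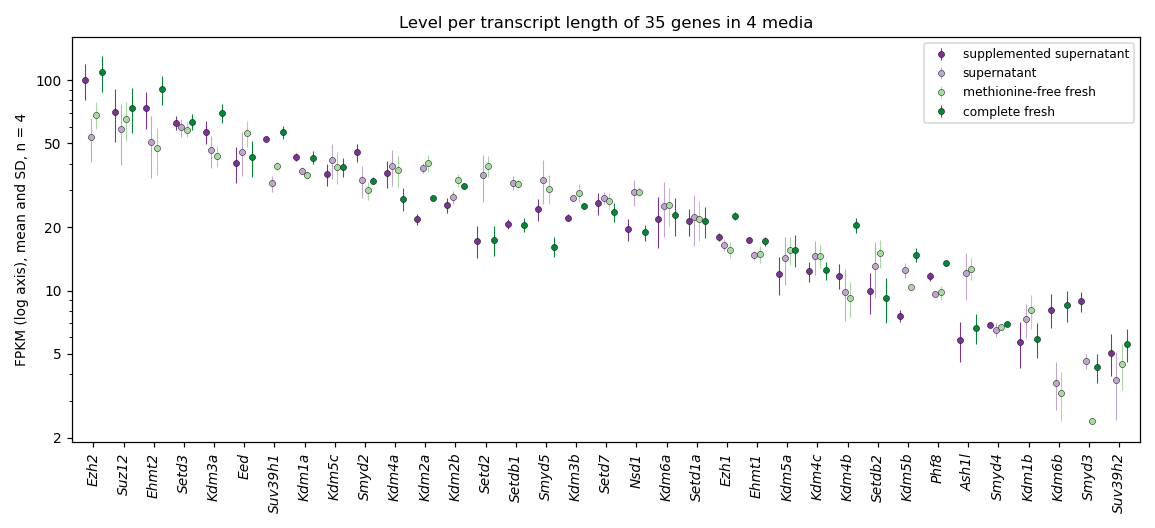
Levels of the 35 enzymes in FPKM (log axis), as the mean and SD of the 4 libraries of each medium, ordered by the mean of the 16 libraries. Ezh2 has the highest mean, 82.6 FPKM, and Suv39h2 the lowest, 4.72 FPKM, and the bars of many neighbouring genes overlap.

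Removing methionine from fresh medium moved most of these genes, in both directions. Differences were tested with limma on log2(depth-normalized reads + 1) over all 12469 genes, and calls were made where the p adjusted by Benjamini-Hochberg was below 0.05. Of the 35 members, 17 were called higher in methionine-free fresh medium and 15 lower, and 3 (Smyd2, Smyd4 and Kdm5a) were not called. Of all genes tested, 43.3% were called higher and 42.3% lower, so a call by itself sets no member apart. The changes were moderate: 2 members, Setd2 and Kdm6b, were called with a change of at least 2-fold, against 27.7% of all genes. The median size of the log2 fold change was 0.45 for the members and 0.57 for all genes. Over the 8257 genes whose mean reached 500 reads, which include all 35 members, the median size was 0.48. The median signed change of the members was 0.02. Scaling by total reads in place of the deposited factors moved the median of all genes to 0.17 on the log2 scale, and 20 members were then called higher and 11 lower. In the FPKM table, 9 of the 17 and 12 of the 15 were called in the same direction, or 14 and 15 with a block for the replicate number. Setd1a, Kdm2b and Kdm5c were called from FPKM neither with nor without the block, and Setd7, Eed, Kdm1b, Kdm4c, Kdm6a, Suv39h2, Suz12 and Setd3 only with it.

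Supernatant compared with complete fresh medium gave 18 members called higher and 14 lower, against 43.0% and 42.5% of all genes. Changes of at least 2-fold were called for 4 members (Setd2, Smyd5, Kdm4b and Kdm6b) and for 27.6% of all genes. Of the genes whose mean reached 500 reads, 19.8% were called so. With total-read scaling, which moved the median of all genes to 0.15, 21 members were called higher and 10 lower. From FPKM, 7 of the 18 and 12 of the 14 were also called, or 11 and 14 with the replicate block. Those called neither way were Setd1a, Eed, Smyd2, Smyd3, Kdm3b, Kdm5c and Kdm6a. Adding methionine to supernatant gave 15 members called higher in supplemented supernatant and 19 lower, against 41.8% in each direction of all genes. Here 3 members (Setd2, Ash1l and Kdm6b) were called with at least a 2-fold change, against 22.3% of all genes and 14.5% of those whose mean reached 500 reads. Total-read scaling moved the median of all genes to -0.14 and gave 11 called higher and 20 lower. From FPKM, 8 of the 15 and 8 of the 19 were called as well, and 14 of each with the replicate block. Setd3, Setd1a, Setd7, Eed, Kdm4a and Kdm2b were called neither way. Where genes are described below, removal, supernatant and addition without further words stand for these 3 comparisons.

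**Figure D2:**
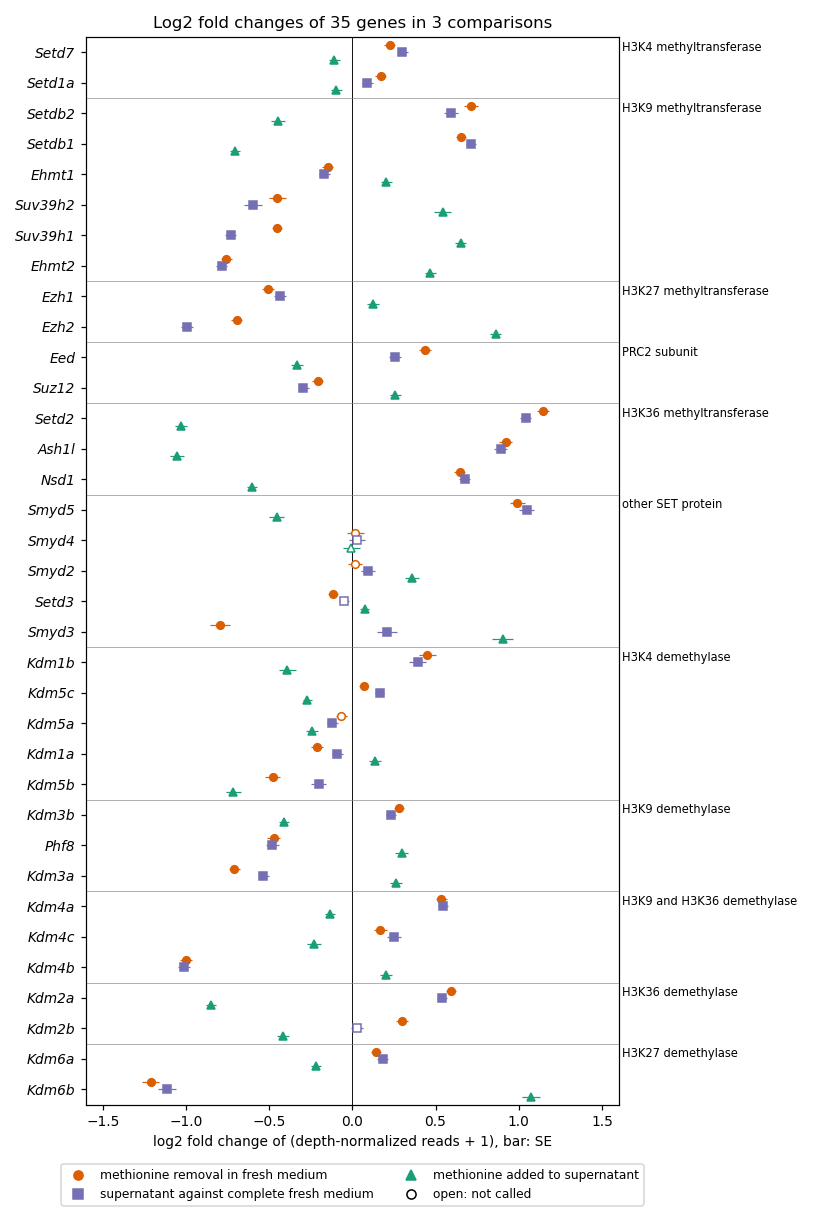
Log2 fold change of each of the 35 enzymes, grouped by target residue, in 3 comparisons of media, with bars for the SE and open points where the adjusted p was not below 0.05. The H3K36 methyltransferases Setd2, Nsd1 and Ash1l sit to the right of 0 on methionine removal (1.14, 0.64 and 0.92), and Kdm6b is the lowest at -1.21.

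The 3 H3K36 methyltransferases among the members moved together. Setd2 is the enzyme that places H3K36 trimethylation along transcribed genes, and Nsd1 and Ash1l place the lower methylation states. All 3 rose in methionine-free fresh medium, all 3 rose in supernatant compared with complete fresh medium, and all 3 fell in supplemented supernatant compared with supernatant. Each of these calls was also made in the FPKM table and under total-read scaling and quantile normalization. Of the related genes in the wider list, Nsd3 followed this pattern by its means and Nsd2 did not. Nsd2 averaged 15007 reads in methionine-free fresh medium and 13306 in complete fresh medium, but 12456 in supernatant and 14033.5 in supplemented supernatant. Nsd3 averaged 11300, 8592, 11806 and 8035 reads in the same order of media.

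Setd2 had 5129, 4970.4, 4949.6 and 5474 depth-normalized reads in the libraries of supplemented supernatant and 10418, 10264, 10620.2 and 10595 in supernatant. It had 11594, 11361, 11168 and 10904 in methionine-free fresh medium and 4741, 5091, 5099 and 5448 in complete fresh medium. Every library without added methionine held more reads than any library with it, and these groups did not overlap. Its log2 fold change was 1.14 ± 0.0352 (SE) on removal (adjusted p = 8.38e-25), 1.04 in supernatant compared with complete fresh medium (1.22e-23) and -1.03 on addition (2.58e-23). Supplemented supernatant differed from complete fresh medium by 0.01 on the log2 scale (95% interval -0.06 to 0.08, not called).

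Ash1l had 2314, 2308, 2113 and 2419.9 reads in supplemented supernatant and 4609.8, 4924, 4645 and 4809.9 in supernatant. It had 4895, 5142, 4848 and 4527 in methionine-free fresh medium and 2435, 2615, 2565 and 2624 in complete fresh medium. Here too the groups were separate across methionine. The change on the log2 scale was 0.92 on removal (SE 0.0398, adjusted p = 1.2e-20), 0.89 in supernatant (3.1e-20) and -1.05 on addition (4.21e-22). Supplemented supernatant stood below complete fresh medium (log2 fold change -0.16, adjusted p = 0.000629). Nsd1 changed less, by 0.64 on removal, 0.67 in supernatant and -0.60 on addition, each with an SE of 0.0311.

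Kdm2a and Kdm2b, which demethylate H3K36, moved the same way as Setd2, Nsd1 and Ash1l on removal and on addition. The Kdm4 enzymes, which act on H3K36 as well as on H3K9, are described below and did not all do so. Kdm2a and Kdm2b are Jumonji enzymes that bind unmethylated CpG islands through a zinc finger, and Kdm2b also recruits a variant Polycomb repressive complex 1. Kdm2a rose by 0.59 on methionine removal (adjusted p = 2.47e-18) and by 0.54 in supernatant, and it fell on addition, with a log2 fold change of -0.85 (1.63e-22). It was also lower in supplemented supernatant than in complete fresh medium (log2 fold change -0.31, adjusted p = 1.94e-10). Kdm2b rose by 0.30 on removal and changed by -0.42 on addition, both called, while in supernatant compared with complete fresh medium it changed by 0.03 (adjusted p = 0.427). Under total-read scaling that last difference was 0.18 and was called higher, and from FPKM it was -0.17 and was called lower with the replicate block (adjusted p = 0.019). The FPKM differences of Kdm2b on removal (0.09, adjusted p = 0.366) and on addition (-0.13, adjusted p = 0.24) were not called, with or without the block.

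The H3K9 methyltransferases split by family. Setdb1 and Setdb2, which carry a divided SET domain and in the case of Setdb1 act with Trim28 to silence retroelements, rose without methionine. Suv39h1 and Suv39h2, the pericentromeric heterochromatin enzymes, and Ehmt1 (GLP) and Ehmt2 (G9a), which form a heterodimer that dimethylates H3K9 in euchromatin, fell. The count was 2 higher and 4 lower on removal, 2 higher and 4 lower in supernatant, and 4 higher and 2 lower on addition. Under total-read scaling Ehmt1 turned to 0.01 on removal.

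Setdb1 rose by 0.65 ± 0.0297 on the log2 scale on removal (adjusted p = 5.97e-20) and by 0.71 in supernatant, and changed by -0.71 on addition (8.43e-21). Setdb2 rose by 0.71 on removal (2.37e-16) and by 0.59 in supernatant, and changed by -0.45 on addition. Setdb1 in supplemented supernatant differed from complete fresh medium by 0.01 (95% interval -0.05 to 0.07).

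Suv39h1 had 5572, 5568, 5835 and 5513 reads in supplemented supernatant and 3720.1, 3537, 3541 and 3531 in supernatant. It had 4186, 4402, 4477 and 4302 in methionine-free fresh medium and 6027, 5845, 5876 and 6046 in complete fresh medium. Its libraries separated by methionine, and those of supernatant also lay below those of methionine-free fresh medium. The log2 fold change was -0.45 on removal (SE 0.0306, adjusted p = 2.37e-15), -0.73 in supernatant compared with complete fresh medium (4.65e-21) and 0.65 on addition (1.77e-19). Of the annotated exonic bases of Suv39h1, 14.6% overlap other genes.

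The paralog Suv39h2 had 759, 739, 712 and 771 reads in supplemented supernatant and 515, 501, 509 and 521 in supernatant. It had 556, 531, 577 and 606 in methionine-free fresh medium and 789.7, 739, 794 and 775 in complete fresh medium. The order of the groups was that of Suv39h1. The changes were -0.45 on removal (SE 0.0536, adjusted p = 2.77e-09), -0.60 in supernatant and 0.54 on addition, and in the FPKM table the changes on removal and on addition were not called without the replicate block.

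Ehmt2 had 9017, 9146, 8528 and 8294 reads in supplemented supernatant and 6264, 6710.4, 6106 and 6219 in supernatant. It had 6466, 6370.3, 6448 and 6485 in methionine-free fresh medium and 10869, 11207, 11069.6 and 10404 in complete fresh medium. No library without added methionine reached the lowest with it, and supplemented supernatant lay between supernatant and complete fresh medium. Its log2 fold change was -0.76 on removal (SE 0.0331, adjusted p = 1.74e-20), -0.78 in supernatant, 0.47 on addition (1.12e-14) and -0.32 in supplemented supernatant compared with complete fresh medium (5.13e-10).

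Ehmt1, the partner, had 2933, 2992, 3000.3 and 2933 reads in supplemented supernatant and 2563, 2531, 2579.7 and 2619 in supernatant. It had 2557, 2653, 2641 and 2579 in methionine-free fresh medium and 3001, 2921, 2879 and 2766 in complete fresh medium. These differences were small, with log2 fold changes of -0.15 on removal (adjusted p = 9.16e-05), -0.17 in supernatant and 0.20 on addition.

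PRC2 writes H3K27 methylation with Ezh2 or Ezh1 as its catalytic subunit, and needs Eed, which reads the mark, and Suz12, which holds the complex together. Ezh2 is known to be high in dividing cells and to be needed by effector CD8+ T cells, and Ezh1 to be kept in resting cells. Both catalytic subunits and Suz12 fell without methionine, whereas Eed rose.

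Ezh2 had 8507, 8249.8, 8985 and 9127 reads in supplemented supernatant and 4896, 4561, 4832 and 4909 in supernatant. It had 5734, 5941, 5957 and 5984 in methionine-free fresh medium and 9492, 9627, 9145 and 9974 in complete fresh medium. The 4 groups did not overlap, and supernatant was the lowest. The change on the log2 scale was -0.69 on removal (SE 0.0335, adjusted p = 2.71e-19), -0.99 in supernatant compared with complete fresh medium (1.18e-23), 0.86 on addition (9.79e-22) and -0.30 in supernatant compared with methionine-free fresh medium (1.75e-08).

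Ezh1 had 2762, 2799, 2757 and 2794 reads in supplemented supernatant and 2505, 2655, 2544 and 2481 in supernatant. It had 2362, 2363, 2533 and 2422 in methionine-free fresh medium and 3418, 3237, 3528 and 3597 in complete fresh medium. Complete fresh medium stood above the other 3 groups. The changes were -0.51 on removal (SE 0.0357, adjusted p = 7.19e-15), -0.44 in supernatant and 0.13 on addition (adjusted p = 0.00174), the last of which turned to -0.01 under total-read scaling. Per length, the ratio of Ezh2 to Ezh1 was 5.57 ± 1.25 in supplemented supernatant, 3.30 ± 0.962 in supernatant, 4.44 ± 0.928 in methionine-free fresh medium and 4.84 ± 1.01 in complete fresh medium (FPKM ratio, SD, n = 4 each). These FPKM ranges overlap between supernatant and every other medium, but at each replicate number the ratio was lowest in supernatant. FPKM deviations were shared in part by libraries of the same number (correlation 0.0926 to 0.479), which the ranges and SDs do not take into account. FPKM varied more between libraries: in supernatant Ezh2 had an SD of 12.7 around 53.4 FPKM, but of 163 around 4799 depth-normalized reads. In those reads, supernatant compared with methionine-free fresh medium changed Ezh2 by -0.30 (called) and Ezh1 by 0.07 (not called).

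Eed rose by 0.44 on the log2 scale on removal (SE 0.0376, adjusted p = 1.46e-12) and by 0.26 in supernatant, and it changed by -0.33 on addition (9.68e-10). From FPKM its change on removal was 0.38 (adjusted p = 0.109) and was called only with the replicate block, while those in supernatant (0.07, adjusted p = 0.784) and on addition (-0.17, adjusted p = 0.504) were not called either way. Suz12 changed by -0.21 on removal (adjusted p = 9.06e-07), -0.29 in supernatant and 0.26 on addition. Its change on removal was -0.05 (adjusted p = 0.175) under total-read scaling and -0.03 (0.413) after quantile normalization.

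Ezh2, Suz12 and Suv39h1, known as cell cycle linked members, are set beside a list of 20 genes of S phase and mitosis. Of these 20, 17 fell and 2 rose on removal, with a median log2 fold change of -0.61. In supernatant 19 of the 20 fell and the other was not called (median -0.98), and on addition 18 rose and 2 fell (median 0.77). The summed level of the list was 309066 to 317722 reads in supplemented supernatant, 202329 to 209816 in supernatant, 248708 to 258899 in methionine-free fresh medium and 366767 to 387824 in complete fresh medium. This is the order of the 4 media seen in the means of Ezh2, Suz12, Suv39h1 and Suv39h2. It was also that of Ehmt2, Phf8 and Kdm4b, whose libraries in supernatant and methionine-free fresh medium overlapped. Eed, which belongs to PRC2 with Ezh2 and Suz12, went the other way with methionine. Its means were 2811 reads in supplemented supernatant, 3546 in supernatant, 4014 in methionine-free fresh medium and 2964 in complete fresh medium. The part of cell division in the levels of these enzymes was not tested.

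The windows around the start sites of Ezh2, Suz12 and Suv39h1 are shown because they hold an E2F-type motif, a class of sequence known from genes of S phase. The motif was searched as TTTCCCGC, TTTGGCGC, TTTCGCGC or TTTGCCGC on both strands, in RefSeq windows of 300 bases (250 before to 50 after the start, GRCm38.p6). The search was chosen after the values were seen. A window was matched for 27 of the 35 members, and 3 of them (11.1%) hold the motif, against 704 of 27025 genes (2.6%). The 27025 are all genes with a window and not only those among the 12469 tested, so the shares are not like for like. Control by E2F was not tested. Capitals mark the motif, at positions 254 to 261 in Ezh2, 32 to 39 in Suz12 and, on the other strand, 187 to 194 in Suv39h1. The windows lie at chr6:47594981-47595280 (minus strand), chr11:79992856-79993155 (plus strand) and chrX:8074312-8074611 (minus strand).
Ezh2: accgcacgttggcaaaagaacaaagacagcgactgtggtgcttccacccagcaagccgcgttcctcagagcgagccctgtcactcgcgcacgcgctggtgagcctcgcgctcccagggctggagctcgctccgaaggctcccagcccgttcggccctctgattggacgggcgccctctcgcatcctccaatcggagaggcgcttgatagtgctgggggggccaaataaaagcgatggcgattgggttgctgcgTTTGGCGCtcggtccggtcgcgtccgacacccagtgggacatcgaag
Suz12: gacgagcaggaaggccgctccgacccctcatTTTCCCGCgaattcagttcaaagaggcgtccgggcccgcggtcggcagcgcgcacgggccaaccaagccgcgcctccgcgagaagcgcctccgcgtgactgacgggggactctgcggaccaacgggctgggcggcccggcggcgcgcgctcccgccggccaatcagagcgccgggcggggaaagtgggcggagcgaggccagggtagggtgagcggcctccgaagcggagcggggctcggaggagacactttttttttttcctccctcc
Suv39h1: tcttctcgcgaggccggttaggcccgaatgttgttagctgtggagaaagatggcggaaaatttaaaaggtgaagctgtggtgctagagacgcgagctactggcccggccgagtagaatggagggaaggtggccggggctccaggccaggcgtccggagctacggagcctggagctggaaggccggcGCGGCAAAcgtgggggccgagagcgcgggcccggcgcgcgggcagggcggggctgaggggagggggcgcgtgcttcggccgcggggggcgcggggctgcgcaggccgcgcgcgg
A match of letters is a description and not a binding site, and the windows matched for other members hold none of these motifs.

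The 2 H3K4 methyltransferases among the members changed little. Setd1a, the catalytic subunit of a COMPASS complex, rose by 0.17 on removal (adjusted p = 3.38e-05) and by 0.09 in supernatant (adjusted p = 0.0156), and changed by -0.10 on addition (adjusted p = 0.0117). None of these was called from FPKM, with or without the replicate block, where the differences were 0.02 on removal (adjusted p = 0.949), 0.03 in supernatant (0.911) and -0.04 on addition (0.9). The call in supernatant was lost without replicate 0 or 3 of complete fresh medium or replicate 1 of supernatant (0.06 to 0.08), and that on addition without replicate 1 of supernatant (-0.08). More of its exonic bases than not, 52.3%, lie in other annotated genes on chromosome 7, so these values may hold other transcripts. Setd7, which monomethylates H3K4 and many other proteins, rose by 0.22 on removal and 0.30 in supernatant and changed by -0.11 on addition (adjusted p = 0.0029, but not called from FPKM with or without the block). Of the 13 genes listed for the COMPASS and MLL complexes, which are the main H3K4 methyltransferases, 8 rose and 4 fell on removal (median 0.23), 7 rose and 4 fell in supernatant, and 4 rose and 9 fell on addition. The members of that list that moved most on removal were Men1 (menin), at -1.10, and Wdr82, at 0.85. Kmt2a averaged 21018 reads in methionine-free and 15301 in complete fresh medium, Kmt2b 7301 and 6345, Kmt2c 7333 and 4713, and Kmt2d 16362 and 11857. Kmt2e went the other way, at 6920 and 8938. Each of these Kmt2 genes had a lower mean in supplemented supernatant than in supernatant, with Kmt2a at 12601 and 20932.

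The SET proteins with mixed or non-histone substrates held the most unlike patterns. Smyd5, which is reported to methylate H4K20, had 2076, 2048, 2319 and 2173 reads in supplemented supernatant and 3092, 2883, 3023 and 2813 in supernatant. It had 2856, 2818, 2904 and 2788 in methionine-free fresh medium and 1522, 1492, 1392 and 1316 in complete fresh medium. All libraries of complete fresh medium lay lowest and those of supplemented supernatant came next. The log2 fold change was 0.99 on removal (SE 0.0438, adjusted p = 2.24e-20), 1.05 in supernatant (4.88e-21) and -0.46 on addition (2.43e-11). Supplemented supernatant still exceeded complete fresh medium by 0.59 (1.58e-13).

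Smyd3, described in tumours as a methyltransferase of H3K4 and of MAP3K2, had 1081, 1222, 1174 and 1045 reads in supplemented supernatant and 621, 578, 622 and 590.3 in supernatant. It had 296, 308, 308 and 289 in methionine-free fresh medium and 528, 471, 524 and 569 in complete fresh medium. It was shown in every library after its values were seen. The 4 groups did not overlap, with both supernatants above both fresh media. Smyd3 changed by -0.80 on removal (SE 0.0622, adjusted p = 1.22e-13), by 0.90 on addition (5.24e-15) and by 1.003 in supernatant compared with methionine-free fresh medium (4.77e-14). In supernatant compared with complete fresh medium it rose by 0.21 (adjusted p = 0.0028, but 0.11 and not called from FPKM, with or without the block), and in supplemented supernatant compared with complete fresh medium by 1.11 (1.27e-16). It was the only member called with at least a 2-fold change in either comparison of a supernatant with its fresh counterpart, supplemented with complete or unsupplemented with methionine-free. Of the 8257 genes whose mean reached 500 reads, 147 (1.78%) were called with such a change in the first of these comparisons. In the second, 3 genes (0.0363%) were.

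Smyd2, which methylates H3K36 in vitro as well as p53, was not called on removal (0.01, 95% interval -0.07 to 0.10), rose by 0.09 in supernatant (adjusted p = 0.0347, but -0.01 and not called from FPKM) and rose by 0.36 on addition (1.5e-09). Of its exonic bases, 30.0% overlap a gene on the opposite strand. Smyd4, a little studied member of the family, was called in none of the 6 comparisons by limma, edgeR or DESeq2, with log2 fold changes between -0.01 and 0.03 and every adjusted limma p at or above 0.593. Under total-read scaling it was called in 3 of them, at 0.18, 0.17 and -0.14, shifts close to that of the median gene. Setd3 changed by -0.12 on removal (adjusted p = 0.000419) and 0.07 on addition, both of which changed sign under total-read scaling, to 0.05 and -0.06.

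**Figure D3:**
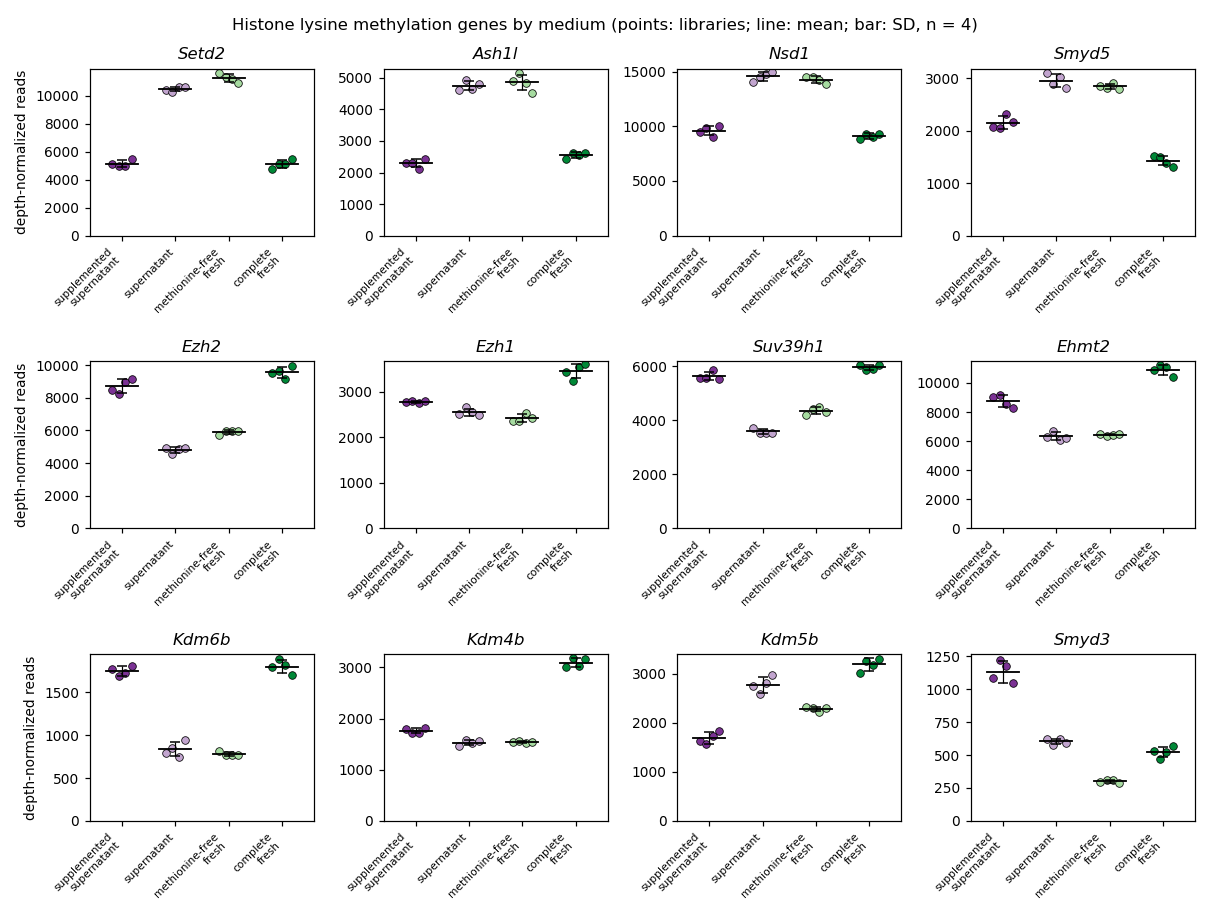
Depth-normalized reads of 12 members, with 1 point per library in each of the 4 media, a line for the mean and a bar for the SD (n = 4). Setd2 and Ash1l are high without added methionine, Kdm6b and Ezh2 are low without it, and Smyd3 and Kdm5b follow neither pattern.

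Among the H3K4 demethylases, the flavin-dependent enzymes went opposite ways. Kdm1a (LSD1), which acts with CoREST complexes, changed by -0.21 on removal (adjusted p = 1.22e-06), -0.09 in supernatant and 0.14 on addition, and the changes on removal and on addition were not called under total-read scaling, where that in supernatant turned to 0.06. Kdm1b rose by 0.45 on removal (SE 0.051, adjusted p = 9.02e-10) and by 0.39 in supernatant, and changed by -0.39 on addition. The Jumonji enzymes Kdm5a, Kdm5b and Kdm5c, which remove trimethylation from H3K4, all fell on addition, with log2 fold changes of -0.24, -0.72 and -0.27.

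Kdm5b was the member whose response to methionine differed most between the media, and it is shown in every library after its values were seen. It had 1631, 1564, 1735 and 1833 reads in supplemented supernatant and 2741, 2581, 2801 and 2979.8 in supernatant. It had 2328, 2291, 2228 and 2300.3 in methionine-free fresh medium and 3013, 3258, 3177 and 3308 in complete fresh medium. Complete fresh medium was the highest group and supplemented supernatant the lowest, with no overlap between any of the 4. It fell by 0.48 on removal (log2 fold change -0.48, SE 0.0441, adjusted p = 7.46e-12) and also fell on addition to supernatant (-0.72, 2.82e-16). It was the only member called in the same direction in both, and 260 of the 5275 genes called lower on removal (4.93%) were also called lower on addition. The difference between the 2 methionine effects was -1.19 (SE 0.0624, adjusted p = 6.25e-17), and it was called in the FPKM table too.

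Among the H3K9 demethylases, Kdm3a, an enzyme for mono- and dimethylated H3K9 that hypoxia is known to induce, changed by -0.71 on removal (SE 0.0341, adjusted p = 2.49e-19), -0.54 in supernatant and 0.26 on addition, the last of which was 0.15 after quantile normalization. Its paralog Kdm3b moved the other way, with 0.28 on removal (adjusted p = 1.65e-10), 0.23 in supernatant and -0.41 on addition, though 24.6% of its exonic bases overlap another gene. Phf8, which also removes H4K20 monomethylation, followed Kdm3a with -0.47, -0.48 and 0.30. All 9 of these were called, but the change of Kdm3b in supernatant was 0.12 and not called from FPKM, with or without the block.

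The Kdm4 enzymes remove trimethylation from H3K9 and H3K36, and their members diverged. Kdm4b had 1792, 1724, 1720.3 and 1807 reads in supplemented supernatant and 1461, 1579, 1516 and 1563 in supernatant. It had 1543, 1570.1, 1518 and 1549.9 in methionine-free fresh medium and 2998, 3178, 3025 and 3155 in complete fresh medium. Complete fresh medium stood apart, and no library of the other 3 groups held more than 1807 reads. Its log2 fold change was -0.999 on removal (SE 0.0367, adjusted p = 1.3e-22), -1.01 in supernatant (8.66e-23) and 0.20 on addition (7.02e-06), which under total-read scaling was 0.07 (adjusted p = 0.0732). Kdm4a did the reverse, with 0.54 on removal (6.49e-17), 0.54 in supernatant (4.39e-17) and -0.13 on addition (0.000263, but not called from FPKM with or without the block). Kdm4c changed by 0.17, 0.25 and -0.23. The methionine effect in supernatant differed from that in fresh medium for Kdm4b by -0.80 (adjusted p = 1.69e-14) and for Kdm4a by 0.40 (3.65e-09).

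The H3K27 demethylases gave the largest fall on removal. Kdm6b (Jmjd3), which is known to be induced when T cells are activated, had 1777, 1687, 1724 and 1812 reads in supplemented supernatant and 798, 847, 749 and 941 in supernatant. It had 810.3, 764, 768 and 766 in methionine-free fresh medium and 1796, 1892, 1813 and 1702 in complete fresh medium. The groups with and without added methionine did not overlap. The change on the log2 scale was -1.21 on removal (SE 0.0521, adjusted p = 1.1e-20), -1.11 in supernatant (1.13e-19) and 1.07 on addition (4.36e-19). Supplemented supernatant differed from complete fresh medium by -0.04 (95% interval -0.15 to 0.07).

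Kdm6a (Utx), an X-linked paralog that belongs to the MLL3 and MLL4 complexes, had 4332, 4208, 4159 and 4505 reads in supplemented supernatant and 5079, 4862, 4947 and 5098 in supernatant. It had 4724, 5027, 4826 and 4861 in methionine-free fresh medium and 4303, 4427, 4394 and 4495 in complete fresh medium. Its changes were small and opposite to those of Kdm6b, at 0.14 on removal (adjusted p = 0.00011), 0.18 in supernatant and -0.22 on addition, and the change in supernatant was not called from FPKM with or without the block. Per length, the ratio of Kdm6b to Kdm6a was 0.404 ± 0.175 in supplemented supernatant, 0.161 ± 0.0810 in supernatant, 0.137 ± 0.0570 in methionine-free fresh medium and 0.396 ± 0.144 in complete fresh medium (FPKM ratio, SD, n = 4 each). Removal thus left the RNA of the H3K27 methyltransferases Ezh1 and Ezh2 and of the demethylase Kdm6b lower, and that of Kdm6a slightly higher. Over the 16 libraries Kdm6a averaged 23.9 FPKM and Kdm6b 5.89 FPKM.

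Set against each other, methyltransferases and demethylases both split between the directions on methionine removal. Of the 20 methyltransferases and PRC2 subunits, 9 rose and 9 fell, with a median log2 fold change of 0.02. Of the 15 demethylases, 8 rose and 6 fell, with a median of 0.07, and the median of all genes was 0.01. In supernatant compared with complete fresh medium, 11 methyltransferases and PRC2 subunits rose and 7 fell (median 0.09), and 7 demethylases rose and 7 fell (median 0.03). On addition of methionine, 10 methyltransferases and PRC2 subunits rose and 9 fell (median 0.03), and 5 demethylases rose and 10 fell (median -0.23). Apart from the demethylase median on addition, each of these is smaller in size than the shift that total-read scaling gives. The median of the methyltransferases and PRC2 subunits on addition turned to -0.10 under that scaling, and to -0.10 over the enzymes with a settled histone residue. By residue, and among the members only, the 3 H3K36 and the 2 H3K4 methyltransferases were all called higher on removal and the 2 H3K27 methyltransferases both lower. Nsd2, Nsd3 and the Kmt2 genes of the wider lists are not in these counts.

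Methionine removal in fresh medium and methionine addition to supernatant share no library, so their calls can be set side by side. All 17 members called higher on removal were called lower on addition. Of the 15 called lower on removal, 14 were called higher on addition, with Kdm5b as the exception. Among all genes, 4462 of 5397 called higher on removal (82.7%) were called lower on addition, and 4384 of 5275 called lower (83.1%) were called higher. No test was made of whether the members differ from all genes in this.

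**Figure D4:**
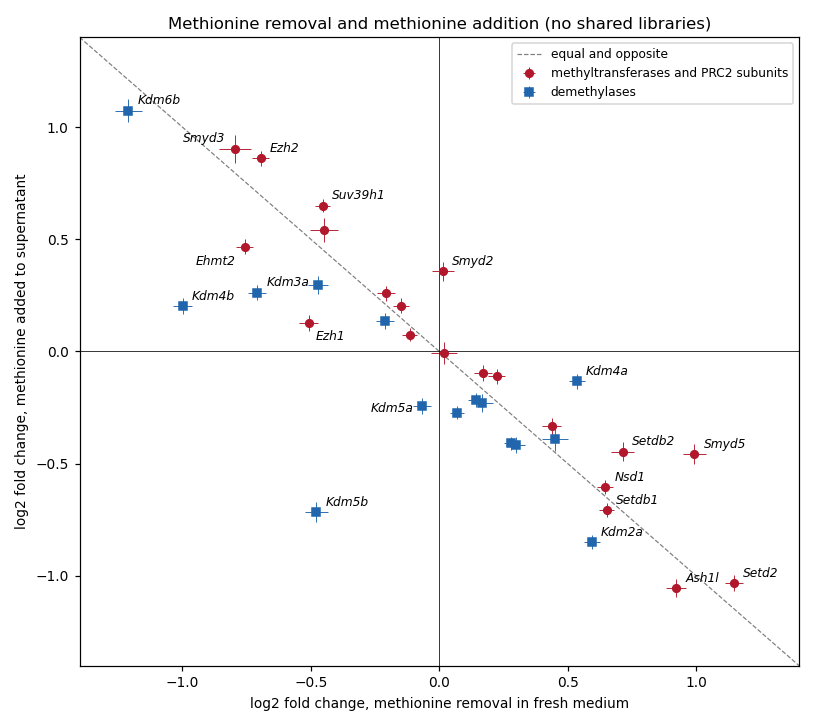
Log2 fold change on methionine removal in fresh medium (x axis) against that on methionine addition to supernatant (y axis), with 1 point per gene, bars for the SE and a dashed line where the changes would be equal and opposite. Kdm5b, at -0.48 and -0.72, is the only one of the 35 genes called in the same direction in both.

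Supplemented supernatant and complete fresh medium both hold added methionine and differ in conditioning by the melanoma cells. Of the 35 members, 7 were called higher in supplemented supernatant, against 32.5% of all genes, and 14 lower, against 32.5% of all genes. Methyltransferases and PRC2 subunits gave 6 higher and 5 lower, with a median of 0.01, and demethylases gave 1 higher (Kdm4a, 0.41) and 9 lower, with a median of -0.18. The lower demethylases included Kdm5b (-0.92), Kdm4b (-0.81), Kdm2b (-0.38), Kdm5a (-0.36), Kdm2a (-0.31) and Kdm3a (-0.27), and the higher methyltransferases Smyd3 (1.11), Smyd5 (0.59) and Smyd2 (0.45). With FPKM values, 3 of the 7 (Smyd2, Smyd3 and Smyd5) and 5 of the 14 (Ezh1, Kdm5b, Kdm4b, Kdm2a and Kdm2b) were called as well, or 4 and 11 with the replicate block. Nsd1, at 0.07 (adjusted p = 0.0418), was not called by DESeq2 (adjusted p = 0.0557).

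Supernatant and methionine-free fresh medium differed least. Here 5 members were called higher in supernatant, against 14.0% of all genes, and 8 lower, against 12.9%. The 5 were Smyd3 (1.003), Kdm5b (0.28), Kdm3a (0.17), Kdm1a (0.12) and Kdm5c (0.10). The 8 were Ezh2 (-0.30), Suv39h1 (-0.28), Kdm2b (-0.27), Eed (-0.18), Suv39h2 (-0.15), Setdb2 (-0.12), Setd2 (-0.10) and Suz12 (-0.09). Ezh2, Eed and Suz12 of PRC2 and both Suv39h enzymes were thus among the lower ones, as were all 20 genes of S phase and mitosis (median -0.31). Setdb2, Setd2 and Suz12 were not called by edgeR or DESeq2 on the recovered reads, and Setdb2, Setd2, Suv39h2 and Suz12 each lost the call when single libraries were left out. After quantile normalization 8 members were called higher and 7 lower. On FPKM values limma called 1 of the 5 (Smyd3) and 0 of the 8, with 2 members lower at an unadjusted p below 0.05, and 2 and 5 with the replicate block.

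The methionine effect in supernatant (supplemented supernatant minus supernatant) was compared with that in fresh medium (complete minus methionine-free) as an interaction. It was called positive for 7 members, against 27.6% of all genes, and negative for 11, against 25.0%. Of the 11 negative calls, 8 were demethylases: Kdm5b (-1.19), Kdm4b (-0.80), Kdm3a (-0.45), Kdm5a (-0.31), Kdm2a (-0.26), Kdm5c (-0.20), Phf8 (-0.17) and Kdm3b (-0.13). Of the 7 positive calls, 6 were methyltransferases, led by Smyd5 (0.54), Smyd2 (0.37) and Setdb2 (0.27), and the other was Kdm4a (0.40). The median was -0.14 for the demethylases, 0.08 for the methyltransferases and PRC2 subunits and 0.01 for all genes. Using FPKM, the interaction was called only for Ezh1 and Kdm5b among these 18, and with the replicate block for 5 of the 7 and 7 of the 11. The calls of Ash1l (-0.13, adjusted p = 0.0492) and Setd7 (0.11, adjusted p = 0.0399) were each lost when single libraries were left out.

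The genes around these enzymes moved as follows. Of 7 further PRC2 partners, 5 fell and 2 rose on removal (median -0.44), led by Phf19 (-1.62) and Aebp2 (0.83), and on addition 5 rose and 2 fell (median 0.52). Of 8 genes listed for readers of heterochromatin and proteins that act with them, 7 fell and 1 (Daxx) rose on removal (median -0.58). Cbx5 (HP1 alpha) was at -1.73 and Uhrf1 at -1.005. On addition 6 of the 8 rose and 2 fell (median 0.58). Of 19 tested genes for other lysine methyltransferases and demethylases, 9 rose and 6 fell on removal (median 0.10), with Kdm4d at 1.94 and Smyd1 at -1.82 as the largest, and on addition 8 rose and 9 fell.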

How the data were processed

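RNA-seq of 16 libraries was used, 4 per medium. The submitters' processing notes name the builds mm10 and GRCm38, with Cuffdiff 2.2.1 and Cufflinks, Bowtie2 2.2.1, TopHat2 2.0.13 and FastQC 0.11.3 as tools. The counting tool, the annotation and the strand used are not given in the sources used here. The authors deposited 1 signal per gene and library, a depth-normalized count. From the values, it is a whole number of reads (to within 0.01, 100% of values) divided by 1 factor per library. The authors also deposited FPKM per library for 23107 genes, for which the depth is unknown. Gene symbols were used as the files give them, with older symbols looked up for the wider lists.

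Values were analysed as log2(value + 1), which understates the change of low genes. The 12469 genes whose mean reached 10 were fitted with 4 group means and a trend of variance on mean, using limma 3.58.1 under R 4.3.3. Contrasts were two-sided, Benjamini-Hochberg adjusted over all genes tested and called below 0.05. FPKM was analysed as log2(FPKM + 0.1) over the 11684 genes averaging 0.5 or more. As alternatives, edgeR 4.0.16 and DESeq2 1.42.0 were run on the recovered reads of 15 libraries. Methionine-free fresh replicate 1 was left out there because its factor lies too close to 1 for the check of whole reads. The fit was tested on simulated data.

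The numbers of the replicates were not used to pair libraries. Over the 24 same-numbered pairs from different media, the correlation of their deviations from the group means was -0.0668 to 0.068 for depth-normalized values and 0.0926 to 0.479 for FPKM. The members, the lists and the classes by residue were chosen with earlier results of these data known. All members were named. Values in every library were given for members with a log2 fold change of at least 1 in size in any of the first 3 comparisons and for the pairs Ezh1/Ezh2, Suv39h1/Suv39h2, Ehmt1/Ehmt2 and Kdm6a/Kdm6b. For Smyd3 and Kdm5b this was added after their values were seen. In each wider list the pair of genes with the largest changes on removal was named. Nsd2, Nsd3, Daxx, the Kmt2 genes and single cell type markers were named after their values were seen.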

Additional observations from a re-analysis of the deposited data

Results flagged for a closer look

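In 8 of the 140 groups of 4 libraries screened, 1 library lay far from the other 3 of its medium, and chance flags about 1 in 20 groups. Of these, 4 belong to methionine-free fresh medium. There, replicate 3 held 4254 reads of Eed (others 3929.9 to 3939), 5718 of Kdm4a (others 5963 to 6004) and 10383 of Kdm2a (others 11108 to 11228), and replicate 0 held 810.3 of Kdm6b (others 764 to 768). In supernatant, replicate 0 held 3720.1 reads of Suv39h1 (others 3531 to 3541) and replicate 3 held 2085 of Kdm4c (others 2275 to 2290.1). In complete fresh medium, replicate 3 held 11797 reads of Suz12 (others 11031 to 11059) and replicate 2 held 927 of Kdm1b (others 999.98 to 1014).

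For 18 members the change with methionine in supernatant differed from that in fresh medium by limma's test of the difference itself. The difference was positive for Smyd5 (0.54), Kdm4a (0.40), Smyd2 (0.37), Setdb2 (0.27), Suv39h1 (0.20), Ezh2 (0.17) and Setd7 (0.11). It was negative for Kdm5b (-1.19), Kdm4b (-0.80), Kdm3a (-0.45), Ezh1 (-0.38), Kdm5a (-0.31), Ehmt2 (-0.29), Kdm2a (-0.26), Kdm5c (-0.20), Phf8 (-0.17), Ash1l (-0.13) and Kdm3b (-0.13). Among these, Kdm5b changed with opposite signs, being lower with added methionine in supernatant and higher with methionine in fresh medium.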

How the results depend on the processing

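Of 5425 results for single members recomputed from depth-normalized values, 5281 kept their call or lack of one, and in 43 of these a difference that was not called changed sign. A call was lost by 98 and gained by 38, and 8 with a call changed sign. Those 8 came with total-read scaling: on removal Ehmt1 0.011, Setd3 0.045 and Kdm5a 0.094, in supernatant Setd3 0.095, Kdm1a 0.057 and Kdm5a 0.026, and on addition Ezh1 -0.0056 and Setd3 -0.058. In the FPKM table, Kdm5c on removal was -0.0091 and Smyd2 in supernatant -0.011, with or without the replicate block, and Kdm2b in supernatant -0.17 with it. The median of methyltransferases and PRC2 subunits on addition was -0.10 with total-read scaling and -0.10 over settled residues, and that of demethylases in supernatant -0.15 in FPKM, with or without the block. Members called in FPKM numbered 9 higher on removal, 7 higher in supernatant, 8 higher and 8 lower on addition, and 3 higher and 5 lower in supplemented supernatant compared with complete fresh medium. They numbered 1 higher and 0 lower in supernatant compared with methionine-free fresh medium (2 and 2 at an unadjusted p below 0.05), and 0 positive and 2 negative for the interaction (0 and 3 unadjusted) by limma, against 7 and 11 by edgeR. With the replicate block, FPKM gave 11 higher in supernatant, 4 higher in supplemented supernatant, 2 higher and 5 lower between the unsupplemented media, and 7 negative interactions. On depth-normalized values the block gave 17 and 15 calls on removal, lost Setdb2 (adjusted p = 0.052) between the unsupplemented media, gained Kdm2b (0.0476) for the interaction and changed no other call. Between the unsupplemented media, quantile normalization called 8 higher, edgeR and DESeq2 5 lower each, and leaving out single libraries gave 5 to 8 lower. Leaving out single libraries ended 13 calls, all with a log2 fold change under 0.16 in size: Kdm5c on removal, Kdm1a, Setd1a and Smyd2 in supernatant, Setd1a on addition, Nsd1 and Suv39h1 in supplemented supernatant, Setd2, Setdb2, Suv39h2 and Suz12 between the unsupplemented media, and Ash1l and Setd7 for the interaction. The highest adjusted p among these was 0.186, for Suz12. The causes of these changes were not tested.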
